A study of Mus musculus with 8 samples.

Results

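The locus described here holds Atg12, the gene deleted in these mice, and its neighbour Cdo1. It was taken as all CpGs in a stretch of 39001 bp of chromosome 18 around both genes, and positions below are those of the mm10 build. Cdo1 spans 15310 bp and Atg12, at higher coordinates, spans 9308 bp, with 3915 bp from one gene to the other. The reads of both strands of a CpG were added, and a CpG was kept when it had at least 10 reads in at least 3 mice of each group. Of 264 CpGs listed for any mouse, 131 met this rule, against 1278034 of 5202765 on the autosomes as a whole. The locus was picked because Atg12 is the targeted gene and because a short stretch of Cdo1 differed by genotype in an earlier look at these same tables. Differences in methylation between the genotypes are therefore given as descriptions, with no test.

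Methylation came from enhanced reduced representation bisulfite sequencing, which reads restriction fragments rich in CpGs after bisulfite has converted unmethylated cytosines. Hematopoietic stem cells were taken from bone marrow as the CD150+ and CD48- cells of the lineage-negative, Sca-1+, c-Kit+, Flk2- fraction and were not cultured. The knockouts, 4 mice numbered 25, 28, 45 and 46, carried loxP-flanked Atg12 alleles with Mx1-Cre (conditional knockout, cKO), a Cre driven by an interferon-inducible promoter that acts in blood cells and in other tissues. The controls, 4 mice numbered 1, 34, 36 and 37, are given as loxP-flanked without Cre in the design text and as WT in the genotype label, so whether loxP sites were present in them is not settled. All 8 mice were labelled C57BL/6 and received poly(I:C), which induces interferon, at 4 weeks of age. Stem cells were taken 2 to 3 months later, and each library came from a single mouse. The sources used here do not give the share of stem cells in which Atg12 was recombined.

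Atg12 is a ubiquitin-like protein. In autophagy it is joined to Atg5 by the enzymes Atg7 and Atg10, and the conjugate, with Atg16l1, helps to attach Atg8-family proteins to the membrane that grows into an autophagosome. Cdo1 encodes cysteine dioxygenase, which oxidises cysteine on the route to taurine and sulfate. CpG-dense stretches at gene starts are usually unmethylated in normal cells, and methylation of such a stretch at CDO1 is well known from human cancers. The gene table gives start and end without strand, so the CpG-rich end of each gene is named here by coordinate and not as a promoter. Another gene, Ap3s1, which encodes a subunit of the AP-3 adaptor complex, starts at 46741694 and overlaps the last 31 bp of Atg12, so the CpG-rich end of Atg12 belongs to both genes.

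The libraries listed between 2038266 and 3366162 cytosines in cKO mice and between 2333324 and 2754436 in control mice. Median coverage over the 131 CpGs of the locus that met the rule was lowest in knockout 45, at 262 reads. It was highest in knockout 25, at 405 reads, with all controls in between. Over the autosomal CpGs that met the rule, it was lowest in knockout 28, at 178 reads, and highest in knockout 25, at 240. Cytosines of the Y chromosome were a larger share of the list in each cKO mouse than in any control, with 1724 to 2658 of them listed against 318 to 426. Cytosines of the X chromosome were a smaller share, at 1.83 to 1.93% of the list in cKO mice against 2.42 to 2.54% in control mice. Sex is not given in the labels. Since the groups overlapped in neither Y nor X content, a difference by genotype and one by sex chromosome content, or by sex, cannot be told apart. This holds for every comparison of the genotypes below. The ratio of coverage at CpGs with at least 90% methylation in every mouse to that at CpGs with at most 5% in every mouse was 0.435, 0.593, 0.637 and 0.577 in knockouts 25, 28, 45 and 46, and 0.827, 0.366, 0.749 and 0.685 in controls 1, 34, 36 and 37. Gene ends were under 5% methylated for 11190 of 13754 genes measured, and for 5 of 5 measured stem cell markers (Kit, Procr, Meis1, Hlf and Mecom). Of 14 genes listed as markers of other blood cells, 7 were measured and 3 were under 5%, among them Flt3 and Klf1. Groups did not overlap for 1 of these markers, Mecom, at 0.269% ± 0.194 in cKO mice and 0.0289% ± 0.0149 in control mice (SD, n = 4 each), where 1.24% of all gene ends were higher without overlap. Levels as small as those of Mecom were not told apart from incomplete conversion by bisulfite. Methylation is not expression, so the values of the markers do not test the purity of the sort.

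Coverage of the locus was confined to a few short stretches. The 131 CpGs fell into 10 within Cdo1 (the Cdo1 block below), 35 others within 1000 bp of the upper end of Cdo1, 84 within 1000 bp of the upper end of Atg12 and 2 elsewhere in Atg12. None of the 32 CpGs listed in the rest of Cdo1, of the 3 between the genes or of the 27 outside the genes had enough reads in enough mice. At these thinly read CpGs methylation was high, with 41 of 43 single-mouse values in the rest of Cdo1 and 37 of 42 outside the genes at 90% or more. The 40 CpGs at the end of Atg12 that failed the rule were all low, with 93 of 93 values at 10% or less. Closest to the threshold were CpG 46728104 and CpG 46741508, each at 0% in the 6 mice that read them, CpG 46728237, at 0 to 0.935% in 6 mice, and CpG 46727400, at 0 to 80.6% in the mice that read it. Over all 264 CpGs, 0 were listed in 4 of 4 knockouts and no control, and 0 in 4 of 4 controls and no knockout, where the autosomal shares were 0.0483% and 0.0349%.

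**Figure D1:**
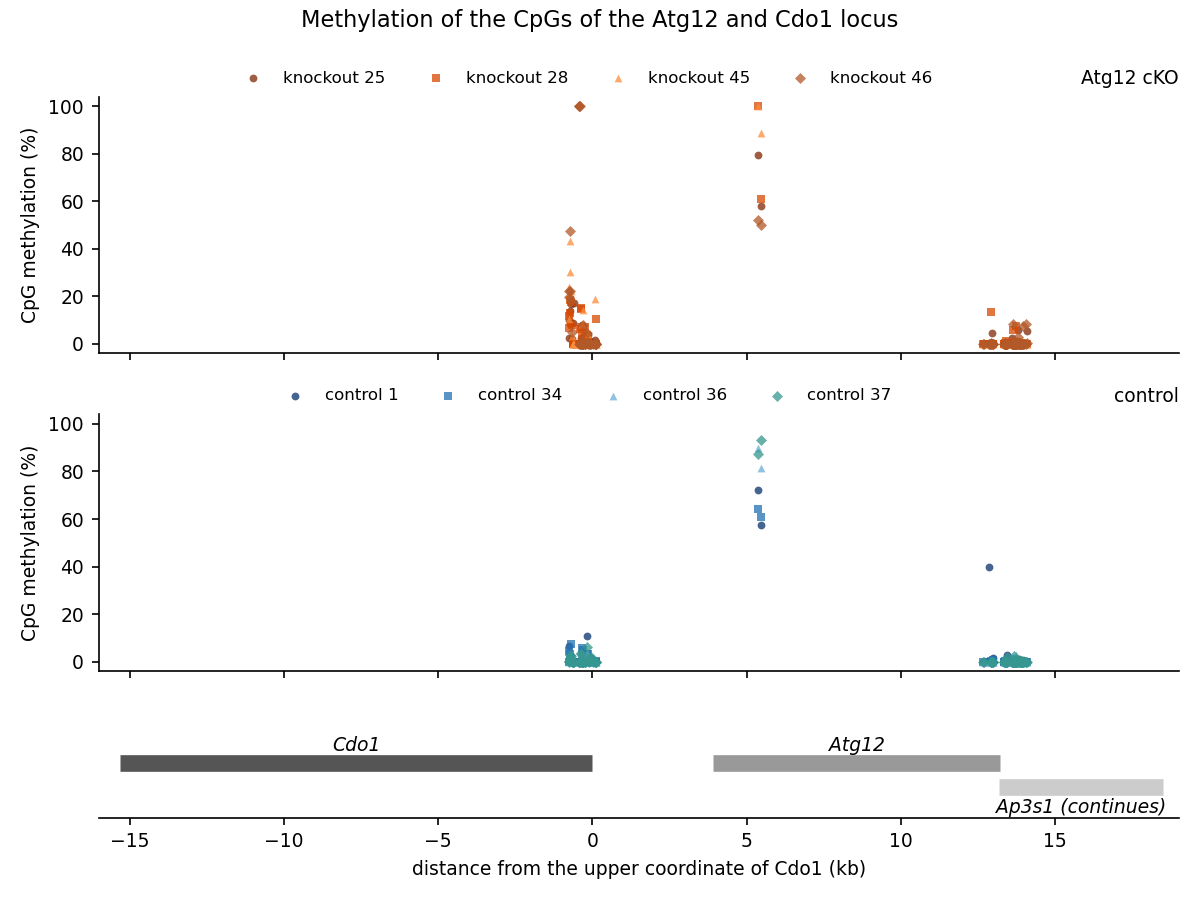
Methylation of the 131 CpGs (%, y axis) against distance from the upper coordinate of Cdo1 (kb, x axis), with knockouts in the upper panel, controls in the middle and gene spans at the bottom. Each point is a CpG in a mouse; most points at both gene ends lie near 0, with exceptions in the Cdo1 block of cKO mice, at 3 Cdo1 CpGs of knockout 46 (100%) and at 1 CpG of control 1 (40%). The 2 CpGs of Atg12 away from its end lie at 50% or more.

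The Cdo1 block was more methylated in all 4 knockouts than in any control. It is the part of a 1 kb window that met the coverage rule, and its 10 CpGs lie between 46727749 and 46727892, from 753 to 610 bp below the upper coordinate of Cdo1. With reads added over the block, the level was 9.53%, 12%, 20.2% and 22.7% in knockouts 25, 28, 45 and 46, against 1.6%, 2.95%, 1.64% and 1.21% in controls 1, 34, 36 and 37. The lowest knockout was above the highest control. Averages of 16.1% ± 6.33 for cKO mice and 1.85% ± 0.759 for control mice (SD, n = 4 each) lay 14.3 percentage points apart. This contrast chose the locus, so the gap is a description of it. Over all 103531 measured windows, 1.5% were higher and 1.52% lower without overlap. Among 24937 autosomal 1 kb windows with a control mean under 5%, 0.0882% were higher in cKO mice by 10 points or more and 0.016% were so with no overlap of the groups. Those last were 4 windows, of which the block had the second largest gap.

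**Figure D2:**
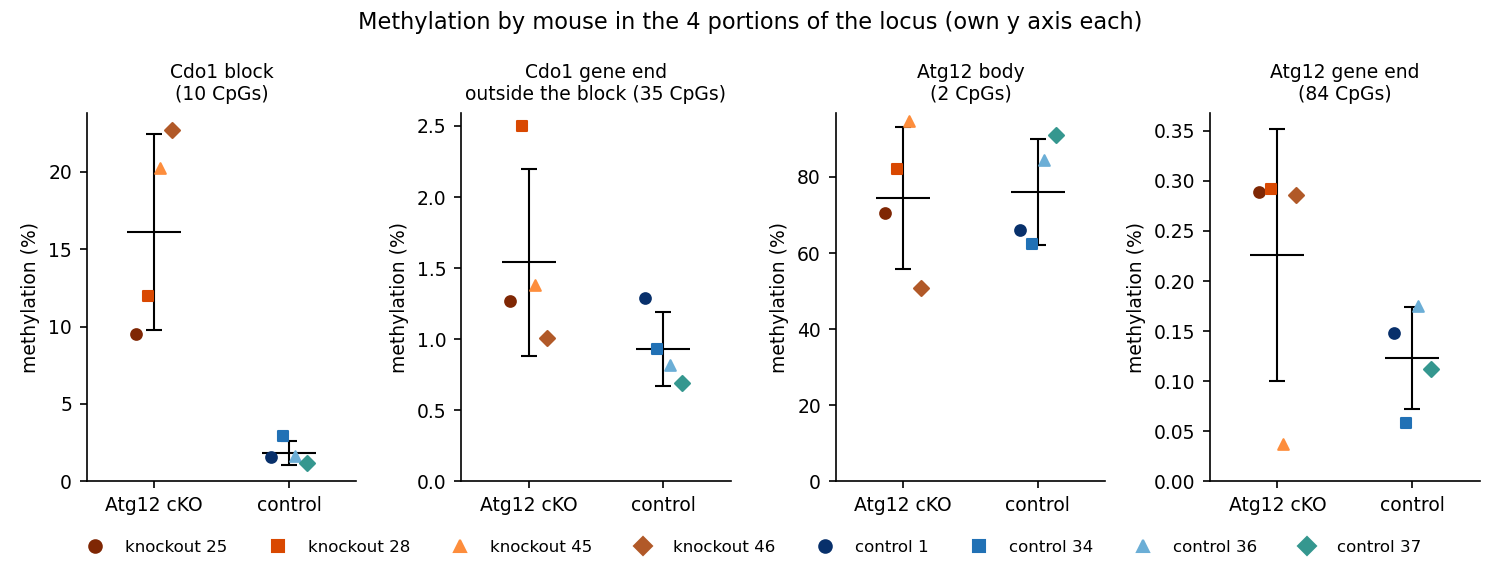
Methylation (%, y axis, own scale in each panel) by mouse in the 4 stretches of the locus, with knockouts left of controls. Points are mice and bars are means ± SD (n = 4); in the Cdo1 block the knockouts lie between 9.53 and 22.7% and the controls between 1.21 and 2.95%, while the groups overlap in the other 3 panels.

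Within the block the difference lay in its first CpGs. At CpG 46727773 the knockouts 25, 28, 45 and 46 were at 13.7%, 13%, 30.3% and 47.3%, against 0%, 0%, 2.32% and 1.47% in controls 1, 34, 36 and 37. At CpG 46727783 cKO mice were at 8.24%, 18.3%, 43.2% and 22.2%, and control mice at 0%, 3.02%, 1.84% and 2.58%. Every knockout was above every control at both sites, and knockouts 45 and 46 held the highest values. The knockout mean was 26.1% ± 16.3 at CpG 46727773 and 23% ± 14.7 at CpG 46727783, against control means of 0.948% ± 1.15 and 1.86% ± 1.33 (SD, n = 4 each).

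The other sites of the block were lower or more even. CpG 46727760 was at 10.2%, 11.5%, 10.5% and 22.2% in knockouts 25, 28, 45 and 46, against 0%, 0%, 1.38% and 0% in controls 1, 34, 36 and 37. CpG 46727799 varied least among the knockouts of the 4 sites without overlap, at 16.6%, 17.5%, 22.1% and 17.9%, and stood at 2.26%, 7.28%, 2.5% and 2.41% in control mice. Groups overlapped at CpG 46727749, where knockout 25 (2.61%) was below control 1 (6.59%) and control 34 (4.32%). They also overlapped at CpG 46727844, with 4.46% ± 2.45 in cKO mice and 0.603% ± 1.01 in control mice (SD, n = 4 each). Beyond it the level dropped to 0% at CpG 46727860 and CpG 46727862 in the 3 knockouts and 4 controls that read them. The last pair of CpGs was at 0% in all of those mice except knockout 25, with 8.64% at CpG 46727866 and 17.1% at CpG 46727892. Knockout 46 had no listed reads over these last 4 CpGs, and the other mice had 17 to 96 reads at each of them.

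**Figure D3:**
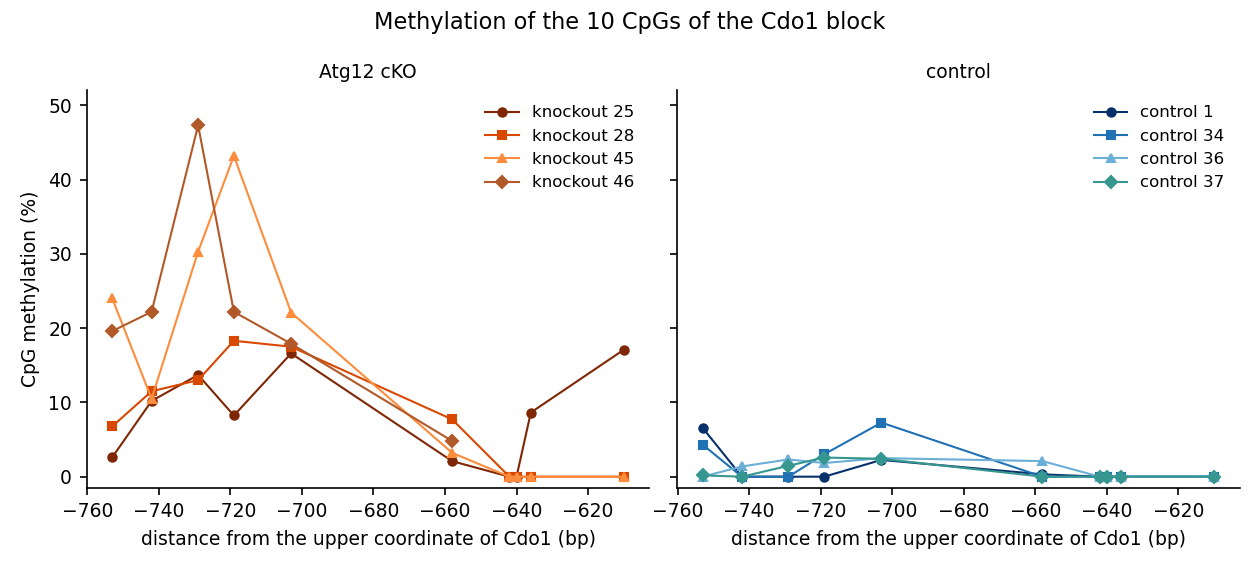
Methylation (%, y axis) of the 10 CpGs of the Cdo1 block against distance from the upper coordinate of Cdo1 (bp, x axis), with knockouts on the left and controls on the right. Lines join the CpGs of a mouse. The knockouts do not all peak at the same CpG and reach up to 47.3%, and the controls stay at or under 7.28%.

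Among the 6 CpGs of the block read in all 8 mice, the highest site differed between knockouts. It was CpG 46727799 in knockout 25, CpG 46727783 in knockouts 28 and 45, and CpG 46727773 in knockout 46. Reads were not independent between sites, since the first 4 CpGs span 34 bp and their coverage in a mouse differed by at most 8.1%, as when the same reads cover all of them. Coverage at these 4 was 354 to 560 reads per mouse. Levels of intermediate size, such as 10 to 20%, mean that methylated and unmethylated reads were both present in a mouse. Whether they came from different cells or from different alleles of the same cell is not resolved by these tables.

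Both strands showed the block as higher in cKO mice, by different amounts. Forward-strand reads, which covered all 10 CpGs, gave 10%, 12.8%, 22% and 26.4% in knockouts 25, 28, 45 and 46, against 2.04%, 3.08%, 1.76% and 1.39% in controls 1, 34, 36 and 37. Reverse-strand reads met the rule at 2 CpGs and gave 7.58%, 8.28%, 7.61% and 9.42% in cKO mice, against 0.167%, 2.46%, 1.18% and 0.656% in control mice. Summed over its CpGs, neither strand had overlapping groups. At CpG 46727844, 1 of the 2 on the reverse strand, the groups did overlap. Reverse-strand levels there were 0.377%, 8.8%, 2.17% and 4.81% in cKO mice and 0.334%, 0%, 2.36% and 0% in control mice. The summed reverse strand varied less among the knockouts (SD 0.862) than the forward strand did (SD 7.69), over different CpGs. The strands can be set side by side at CpG 46727799, the site that both read deeply. There the forward strand was at 17.7%, 23.4%, 26.1% and 20.7% in cKO mice and 4.11%, 8.68%, 3.98% and 3.33% in control mice. The reverse strand of CpG 46727799 was at 14.8%, 7.76%, 13% and 14% in cKO mice and 0%, 4.68%, 0% and 1.32% in control mice, lower than the forward strand in every mouse.

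The rest of the CpG-rich end of Cdo1 was almost unmethylated in both genotypes. Its 35 CpGs, from 46728064 to 46728633, were at 1.27%, 2.5%, 1.38% and 1.01% in knockouts 25, 28, 45 and 46, against 1.29%, 0.934%, 0.819% and 0.689% in controls 1, 34, 36 and 37. The groups overlapped, with means of 1.54% ± 0.66 and 0.934% ± 0.259 (SD, n = 4 each). Of the single-mouse values, 93 of 139 in cKO mice and 98 of 140 in control mice were exactly 0. Values of 5% or more were 16 in cKO mice and 3 in control mice, and 7 of the 16 came from knockout 28. That mouse had 15.2% at CpG 46728135, where every other mouse was at 0%. It had 14.8% at CpG 46728146, where the other knockouts were at 0% and controls 36 and 37 were at 3.42% and 3.45%.

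A few sites of this stretch rested on 1 mouse. Knockout 46 was at 100% at CpG 46728064, CpG 46728071 and CpG 46728093, with 23 reads at each, while every other mouse that read them was at 0%. Its neighbour CpG 46728073 was at 0% in knockout 46 with 22 reads. Knockout 45 had 19% at CpG 46728595 and 14.1% at CpG 46728189, where no other mouse reached 10%. Of 127 CpGs of the locus with a control mean under 5%, 8 were higher in cKO mice by 10 points or more, or 6.3%, against 0.497% of such CpGs on the autosomes. They comprised 5 CpGs of the block and the 3 that rested on knockout 46, and as the locus was chosen on this contrast nothing is read from that share.

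Some sites around the block were read in too few mice to be kept, and several of these were partly methylated. CpG 46727369 was at 38.5% in the only knockout that read it, knockout 25, against 0%, 54.8%, 38.9% and 100% in controls 1, 34, 36 and 37. CpG 46727400 was at 68.1%, 0% and 46.6% in knockouts 25, 28 and 46, against 21.1% in control 34 and 80.6% in control 37. CpG 46727482 and CpG 46727491 were at 66.7% and 67.6% in knockout 25 and at 0% in control 34. Others, such as CpG 46727723, CpG 46727737 and CpG 46727746, were read in controls 36 and 37 only, at 0%. In the 1 kb window of the block, 15 of 29 single-mouse values at CpGs that failed the rule were at 10% or less. Above the end of Cdo1, CpG 46728832, CpG 46728849 and CpG 46728876 were read in controls 36 and 37 only, at 50 to 100%. These single values had 11 to 72 reads each. Few mice read these flanks, so the genotypes were not compared there.

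Across the locus, 4 of the 131 CpGs had groups that did not overlap. All 4 lay in the block and were higher in cKO mice, a share of 3.05% against 0.699% over the autosomal CpGs that met the same rule. None was lower in cKO mice, against 0.575% of autosomal CpGs. Most CpGs of the locus were near 0, where groups can hardly separate. Among CpGs with a mean level of 5 to 95%, the 4 were 4 of 11 in the locus, against a background of 1.57% for higher and 1.54% for lower. The rule used this contrast, so these shares are given as background only.

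The CpG-rich end of Atg12 was unmethylated in stem cells of both genotypes. Over 84 CpGs from 46741159 to 46742585 the level was 0.289%, 0.292%, 0.0373% and 0.286% in knockouts 25, 28, 45 and 46, against 0.148%, 0.0581%, 0.175% and 0.112% in controls 1, 34, 36 and 37. The groups overlapped, because knockout 45 was the lowest of all 8 mice. Means were 0.226% ± 0.126 and 0.123% ± 0.0505 (SD, n = 4 each), from 22942 to 38370 reads per mouse added over the CpGs. Exactly 0 was recorded for 278 of 331 values in cKO mice and 274 of 332 in control mice. Unconverted cytosines also count as methylated, and the sources used here do not give the conversion rate, so levels this small were not told apart from incomplete conversion.

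The end of Atg12 was low on both sides of the point where Ap3s1 begins. The 13 CpGs inside Atg12 before that point averaged 0.41% ± 0.483 in cKO mice and 0.3% ± 0.513 in control mice, and the 71 CpGs from it on averaged 0.206% ± 0.117 and 0.113% ± 0.0545 (SD, n = 4 each). Single values of 5% or more numbered 8 in cKO mice and 1 in control mice. The highest was 40% at CpG 46741365 in control 1, on 40 reads, where the other mice that read it were at 0%. In the knockouts the highest was 13.5% at CpG 46741417 in knockout 28, and again every other mouse was at 0%.

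Away from its CpG-rich end, the only CpGs of Atg12 that met the rule were both methylated. CpG 46733876 was at 79.6%, 100%, 100% and 52.2% in knockouts 25, 28, 45 and 46, against 72.1%, 64.1%, 89.8% and 87.3% in controls 1, 34, 36 and 37. CpG 46733980 was at 58%, 61%, 88.5% and 50% in cKO mice and 57.6%, 61%, 81.5% and 93.4% in control mice. The groups overlapped at both sites. Their pooled level was 74.5% ± 18.6 in cKO mice and 76% ± 13.9 in control mice (SD, n = 4 each), a gap of -1.47 percentage points that is small beside the spread between mice. The 7 other CpGs listed in Atg12 outside the CpG-rich end gave 10 single-mouse values, all at 90% or more.

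Read coverage is a measure that the choice of the locus did not rest on, apart from the minimum of 10 reads, and it was tested by genotype. It asks whether reads over the targeted gene were fewer in cKO mice. Reads were added over the CpGs of each 1 kb window, and edgeR's quasi-likelihood test was run on 421123 autosomal windows. At an adjusted p under 0.05 it called 0 windows, or 0%, with 9274 (2.2%) at an unadjusted p under 0.05. None of the 3 tested windows of Atg12 or the 4 of Cdo1 was called. DESeq2 called 553 windows, of which 0 lay in Atg12 or Cdo1.

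No loss of coverage over Atg12 was detected in cKO mice, within a wide error. The window from 46733001 to 46734000, which holds the methylated CpGs inside the gene, had 399, 309, 754 and 609 added reads in knockouts 25, 28, 45 and 46, against 345, 317, 406 and 332 in controls 1, 34, 36 and 37. Its log2 fold change, knockout over control, was 0.37 with a standard error of 0.36 (edgeR quasi-likelihood test, adjusted p = 1). The window from 46741001 to 46742000, at the CpG-rich end, had 10632, 6646, 5596 and 10906 reads in cKO mice and 6708, 9563, 5841 and 5891 in control mice, a log2 fold change of 0.11 with a standard error of 0.28 (adjusted p = 1). This small value turned to -0.03 with the coverage ratio of the libraries as a covariate, to -0.03 without knockout 25 and to -0.01 without knockout 46, and was 0.00 or slightly below without control 36. With so few mice and this spread, even a large loss of reads may not pass the test. The sources used here do not say which segment of Atg12 loxP sites flank. Whether any of these CpGs lies in it is not known, and the genotype labels could not be checked from coverage.

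Relative coverage of the 4 stretches did not pass the test either. Only CpGs with at least 10 reads in at least 3 mice of each group were counted. A CpG without reads in most knockouts was thus left out, so the test cannot show a full loss of reads. On the log2 scale, against the mean of autosomal CpGs listed in all mice, the 84 CpGs of the Atg12 end were at 0.08 ± 0.21 in cKO mice and 0.25 ± 0.15 in control mice (SD, n = 4 each; exact two-sided permutation p = 0.257, adjusted p = 0.343 over the 4 stretches). The 2 CpGs of Atg12 away from its end were at -0.48 ± 0.41 and -0.80 ± 0.20 (exact permutation p = 0.229, adjusted p = 0.343). The Cdo1 block was at -0.25 ± 0.12 and -0.04 ± 0.22 (exact permutation p = 0.143, adjusted p = 0.343), and the rest of the Cdo1 end was at 0.24 ± 0.25 and 0.35 ± 0.12 (exact permutation p = 0.543, adjusted p = 0.543). With 4 mice against 4 the smallest possible p before adjustment is 0.0286. After adjustment over the 4 stretches, full separation in 1 stretch, or in both stretches of Atg12, stays above 0.05. A change of coverage confined to Atg12 could therefore not pass. An unlisted CpG counted as 0 reads, which lowers the block in knockout 46. Mean coverage of the block was 321, 246, 293 and 265 reads per CpG in knockouts 25, 28, 45 and 46, against 251, 278, 286 and 387 in controls 1, 34, 36 and 37.

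**Figure D4:**
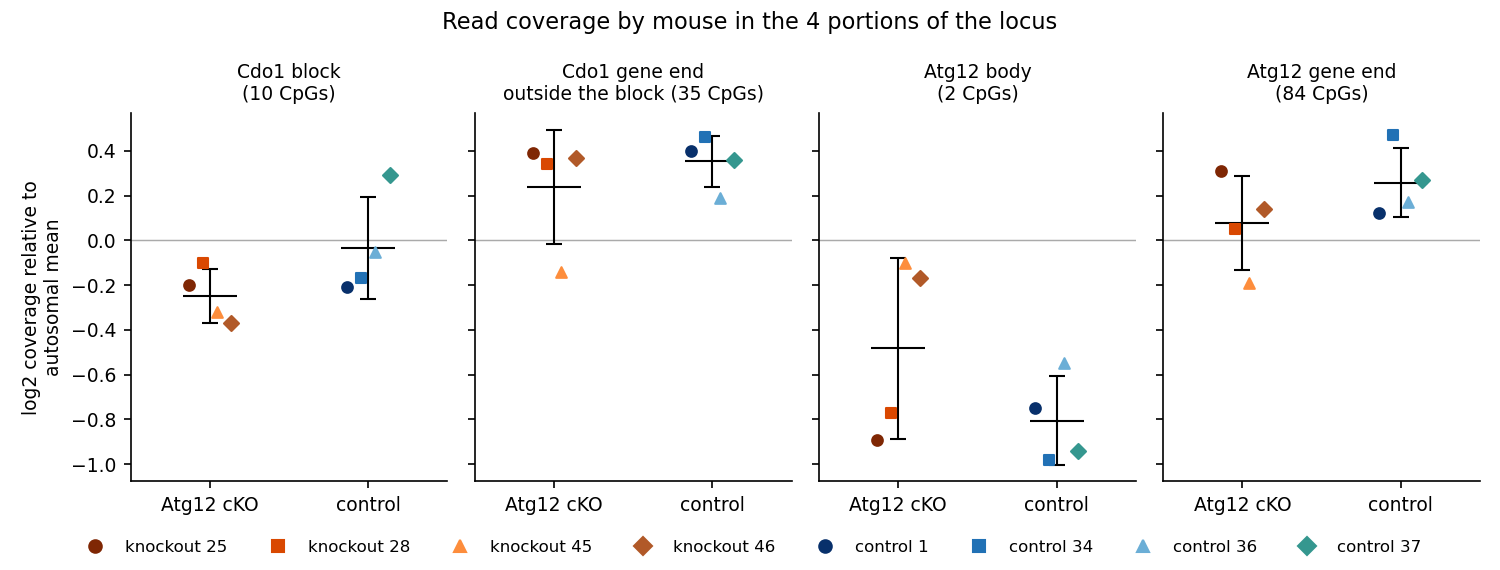
Read coverage of the 4 stretches (log2 of mean coverage over the autosomal mean of the same mouse, y axis) by mouse, with knockouts left of controls. Points are mice and bars are means ± SD (n = 4); the groups overlap in all 4 panels, and none of the adjusted p-values is under 0.343.

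Control 34, whose coverage ratio of methylated to unmethylated CpGs was the lowest at 0.366, had the highest block level of the controls at 2.95%. Knockout 25, with the lowest ratio of the knockouts at 0.435, had the lowest block level of the knockouts at 9.53%. The ratios and block levels of all mice are given above, and a link between them was not tested. Without control 34 the gap was 14.6 percentage points. Without knockout 25 it was 17.8 over the 6 CpGs that then met the rule, against 15.3 over the 6 CpGs read in all 8 mice.

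Other genes of both pathways had gene ends that were mostly unmethylated. A gene end is the end of a gene with more listed CpGs within 1000 bp, measured where at least 3 of them met the coverage rule. All 12 measured genes of the Atg12 conjugation machinery were under 5%, as were 11190 of 13754 gene ends in all. Among the 12 was Atg5, the partner of Atg12, at 0.303% ± 0.111 in cKO mice and 0.192% ± 0.0619 in control mice. Atg7, the activating enzyme, was at 0.455% ± 0.748 and 0.0925% ± 0.0622, and Atg10, the conjugating enzyme, at 0.0559% ± 0.0146 and 0.0634% ± 0.0488 (SD, n = 4 each). The median difference over these 12 was 0.0446 percentage points, against 0.000232 over all 13754 measured gene ends. Groups did not overlap for 1 of the 12, Gabarapl1, an Atg8-family gene that was lower in cKO mice at 0.0293% ± 0.0354 than in control mice at 0.146% ± 0.0365, where 1.53% of all gene ends were lower without overlap. Levels this small were not told apart from incomplete conversion, so nothing is read from this difference.

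Of 20 genes of cysteine and taurine metabolism, 16 were measured and 14 were under 5%, a share near that of all gene ends. Csad, which acts after Cdo1 on the route to taurine, was at 0.122% ± 0.0945 in cKO mice and 0.0909% ± 0.133 in control mice. Ado, the cysteamine dioxygenase, was at 0.517% ± 0.173 and 0.384% ± 0.105 (SD, n = 4 each). The exceptions were Tst, a sulfurtransferase at 5.21% ± 0.722 and 5.42% ± 0.52, and Bhmt, the betaine-homocysteine methyltransferase, at 93.2% ± 4.84 and 96.8% ± 1.77. Cdo1 itself, block included, was at 4.03% ± 1.08 and 1.09% ± 0.247 over 45 CpGs. It was the only one of the 16 whose groups did not overlap, where 1.24% of all gene ends were higher without overlap. Cdo1 was chosen on this contrast, so nothing is read from that. Without the block its end was at 1.54% in cKO mice and 0.934% in control mice, with overlapping groups. The median difference over the 16 was -0.0534 percentage points.

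The gene ends most like the Cdo1 block, by the mean absolute difference over the 8 mice among 13753 gene ends, were those of Masp1 and Rtp4 on chromosome 16, which hold the same CpGs, Slc6a5 on chromosome 7, Gm10130 on chromosome 2 and Il17b on chromosome 18. Masp1 encodes a complement-activating protease and Rtp4 an interferon-induced receptor transporter protein. Their shared window was at 7.71%, 12.6%, 9.59% and 13.7% in knockouts 25, 28, 45 and 46, against 0%, 6.62%, 0% and 0% in controls 1, 34, 36 and 37, an average of 3.77 percentage points from the block. Slc6a5, a glycine transporter gene, was at 10.3% ± 5.45 in cKO mice and 4.51% ± 3.21 in control mice, and Il17b, a cytokine gene, at 9.24% ± 3.35 and 4.1% ± 1.74 (SD, n = 4 each). Gm10130 was at 7.31% ± 4.12 and 1.43% ± 1.1. These genes were chosen for their likeness to the block, so their gaps between the genotypes are no separate support for it.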

How the data were processed

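The authors deposited, per mouse, a count of reads over each listed cytosine (coverage) and, per the file headers, the percent of those reads showing C or T. The submitters' processing notes name Bismark, mm10 and CASAVA 1.8.2. The sources used here do not state filters or duplicate handling. No listed cytosine had under 10 reads, and an unlisted one was treated as unread. Methylated reads were recovered as coverage times percent, rounded, and strands were added. Levels are methylated reads over the reads showing C or T, and for stretches both were summed over CpGs. Intervals were not computed, since reads of a fragment are shared between CpGs and may be copies of 1 molecule. Gene coordinates came from RefSeq for GRCm38.p6, which is mm10. Coverage, 320401982 to 440512483 summed reads per library, was tested with edgeR 4.0.16 (R 4.3.3; TMM, filterByExpr, Benjamini-Hochberg); standard errors are the fold change over the root of F. DESeq2 1.42.0 was an alternative. Exact permutation tests used all 70 arrangements. The edgeR fit was checked on simulated data, where it missed many windows even at the strongest simulated loss of reads, so its sensitivity is low. The named genes are the members, 5 gene ends nearest to the block in level, and the lists. The members and lists were chosen with earlier results of these data known. Replicates are named by mouse number, and no number occurs in both genotypes.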

Additional observations from a re-analysis of the deposited data

Results flagged for a closer look

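Single mice stood apart from the 3 others of their group in 6 of 32 groups of values examined. For normally distributed values, chance meets this rule in about 1 in 20 groups. Several of the levels are at or near 0, and 1 value above 0 beside 3 at 0 always meets the rule. Several values also rest on the same reads, so nothing is read from the count. At the CpG-rich end of Atg12, knockout 45 was at 0.0373% methylation, far below the other knockouts. Knockout 46 was at 22.2% at CpG 46727760, far above the other knockouts. Among the controls, control 36 was at 1.38% at CpG 46727760, where the other controls were at 0%, and at 2.1% at CpG 46727844. Control 34 was at 7.28% at CpG 46727799. In coverage, knockout 45 was at -0.14 on the log2 scale at the Cdo1 end outside the block, below the other knockouts; without that mouse the genotype difference there turned to 0.02.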

How the results depend on the processing

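The Cdo1 block stayed higher in the knockouts under all 14 alternatives, by 12.1 to 17.8 percentage points with each mouse left out. The alternatives reuse the contrast that chose the block, so they are no separate support for it. Without knockout 25, 28 or 45, 6 CpGs of the block met the rule, against 10 with all mice. On the reverse strand, which read 2 CpGs of the block, the gap was 7.1 points. The rest of the Cdo1 end kept a small positive gap, from 0.237 to 0.788 points with each mouse left out, 2.81 points as an unweighted mean of CpGs and 0.0498 points on the reverse strand. The Atg12 end gap ran from 0.0995 to 0.166 points with each mouse left out. CpGs with non-overlapping groups numbered 4 to 7 with each mouse left out, 7 without control 36, and 1 on the reverse strand. The count of windows differing in coverage, 0 by edgeR, was 553 by DESeq2, 413 with no filter on low counts and 0 to 135 with each mouse left out, 135 without control 34; none lay in Atg12 or Cdo1, and the cause was not tested. The log2 coverage fold of the Atg12 window from 46741001 turned to -0.03 with the coverage ratio as a covariate and ran from -0.03 to 0.33 with each mouse left out. Relative coverage of the Cdo1 end outside the block turned to 0.02 without knockout 45 and was as low as -0.16 with other mice left out. Using windows read in all 8 mice, and the relative coverage alternatives, were chosen after seeing the data. No paired analysis was possible because the groups share no replicate number.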
